A study of Mus musculus with 54 samples.

Results

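Expression of 10 immediate early genes was examined in RNA-seq libraries of ovarian follicle sides: Fos, Fosb, Jun, Junb, Egr1, Atf3, Ier3, Nr4a1, Dusp1 and Klf4. They were taken by gene symbol from the 25149 genes of the tables, of which 21985 were counted in any of the 54 libraries. Secondary follicles of CD-1 mice aged 14 to 16 days were grown for 8 days in alginate, a hydrogel that holds a follicle in its spherical shape. Antral follicles were then kept for 12 h in medium with or without human chorionic gonadotropin (hCG), which acts on the receptor of luteinizing hormone and induces ovulation. All of them had fetal bovine serum, EGF and FSH in that medium. Each follicle was cut into the side that ruptured (or, without hCG, was predicted to rupture) and the opposite side, and the cumulus-oocyte complex was removed according to the study, although the labels name that complex as the tissue. The groups were the putative unruptured side (n = 15) and putative ruptured side (n = 14) without hCG, and the unruptured side (n = 12) and ruptured side (n = 13) post-hCG. No transgene or deletion is named for these mice, and the labels do not say which sides came from the same follicle or animal, so that p-values measure the spread between follicle sides.

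Immediate early genes are genes whose transcription can be switched on without new protein synthesis, through factors that already sit in the resting cell. SRF and its TCF partners pass on signals from the ERK pathway, and CREB passes on cyclic AMP signals such as those that start at the luteinizing hormone receptor. Fos, Fosb, Jun and Junb encode subunits of the dimeric AP-1 transcription factor, Egr1 and Klf4 encode zinc finger transcription factors, Nr4a1 an orphan nuclear receptor, and Atf3 a factor of the ATF/CREB family. Ier3 encodes a regulator of survival and ERK signaling and Dusp1 a phosphatase that switches off MAP kinases. Induction is usually brief, and in granulosa cells several of these genes are known to respond within the early hours after an ovulatory stimulus, whereas the libraries here were all taken at 12 h.

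The sequences upstream of 5 of these genes are shown because Fos, Fosb and Jun were the members with the lowest log2FC for hCG and because Nr4a1 and Dusp1 held the other sites searched for. They come from RefSeq on GRCm38.p6, in which 9 of the 10 members were matched by symbol, all but Egr1. Each runs 5′ to 3′ over the 250 bases before the annotated start, on the strand of the gene: Fos at chr12:85473640-85473889 (+), Jun at chr4:95052223-95052472 (-), Fosb at chr7:19310046-19310295 (-), Nr4a1 at chr15:101266596-101266845 (+) and Dusp1 at chr17:26508473-26508722 (-). Capitals mark the motifs found.
Fos: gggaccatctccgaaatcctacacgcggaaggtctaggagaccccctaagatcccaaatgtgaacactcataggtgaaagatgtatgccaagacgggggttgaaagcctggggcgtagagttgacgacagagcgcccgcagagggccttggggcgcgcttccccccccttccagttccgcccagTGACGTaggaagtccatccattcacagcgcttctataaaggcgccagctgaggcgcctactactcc
Jun: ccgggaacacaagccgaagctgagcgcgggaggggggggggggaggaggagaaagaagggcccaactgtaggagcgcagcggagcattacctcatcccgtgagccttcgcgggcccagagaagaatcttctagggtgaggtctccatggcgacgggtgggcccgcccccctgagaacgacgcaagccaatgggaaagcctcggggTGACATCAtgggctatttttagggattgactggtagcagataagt
Fosb: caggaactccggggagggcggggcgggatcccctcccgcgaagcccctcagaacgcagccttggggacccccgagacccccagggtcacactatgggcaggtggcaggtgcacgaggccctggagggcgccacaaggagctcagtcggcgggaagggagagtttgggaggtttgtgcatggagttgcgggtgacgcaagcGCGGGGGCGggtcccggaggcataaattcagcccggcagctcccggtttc
Nr4a1: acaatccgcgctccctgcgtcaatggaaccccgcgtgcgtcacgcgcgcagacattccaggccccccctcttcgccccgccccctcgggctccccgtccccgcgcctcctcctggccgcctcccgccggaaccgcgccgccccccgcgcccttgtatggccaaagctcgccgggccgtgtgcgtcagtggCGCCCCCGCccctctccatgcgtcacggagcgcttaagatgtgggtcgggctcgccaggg
Dusp1: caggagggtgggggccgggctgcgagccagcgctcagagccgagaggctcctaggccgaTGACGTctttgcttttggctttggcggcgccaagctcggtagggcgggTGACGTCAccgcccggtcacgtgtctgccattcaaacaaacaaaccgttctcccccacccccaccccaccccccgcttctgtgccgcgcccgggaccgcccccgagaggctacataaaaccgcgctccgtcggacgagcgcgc
Motifs were sought on both strands of the 300 bases from 250 before to 50 after the start. The cyclic AMP response element TGACGTCA occurred in Dusp1, with its first base at position -143, and in 1.79% of all 32851 promoters of the table. The EGR site GCGGGGGCG occurred in Fosb at -50, in Nr4a1 at -60 and, outside the sequences shown, in Klf4 at -194, on the reverse strand in the last 2, and an EGR site (this or GCGTGGGCG) occurred in 3.47% of all promoters. No CArG box, the SRF site, and no AP-1 site (TGACTCA or TGAGTCA) was found in the windows of these 9 members, against 1.63% and 5.20% of all promoters. Sites outside these windows, and any site of Egr1, were not searched, so the members cannot be said to lack them. The capitals in Fos (TGACGT at -66, the core of the cyclic AMP response element, also at -191 in Dusp1 and inside its full site, and on the reverse strand at -8 in Atf3) and Jun (TGACATCA at -45) were searched for after these results were known, and occurred in 7.51% and 3.62% of all promoters. These matches describe letters and not binding.

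Libraries held 1497071 to 2834734 counts, and the 10 genes together took 0.0901% to 0.536% of them. The labels end in a code of a letter and a number that they do not explain, and media and code letters cannot be told apart, since post-hCG libraries carried the letters B to D and those without hCG F to H. Sides were also split by letter in part. The letters B and F were carried by unruptured sides only, D and H by ruptured sides only, and C and G by both. The mitochondrial share of counts was 7.38% ± 1.85 (SD, n = 15) on the putative unruptured side and 6.88% ± 1.22 (SD, n = 14) on the putative ruptured side, and 4.44% ± 0.937 (SD, n = 12) and 4.12% ± 0.922 (SD, n = 13) on the corresponding sides post-hCG. In such bulk samples, fewer cells of a type and less RNA per cell cannot be told apart. The protocol does not keep the strand of a transcript, so reads from stretches shared with an antisense gene cannot be assigned: Jun shares 689 bases with Junos and Dusp1 shares 640 bases with Ergic1 on the opposite strand.

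Fos, Fosb, Jun and Ier3 were lower post-hCG, Junb and Nr4a1 had higher medians post-hCG, and Dusp1 had a lower median post-hCG on the unruptured side only. Egr1 had group medians between 76.95 and 94.71 TPM, and Atf3 and Klf4 were close to 0 in all of them. Levels are given in TPM, a unit of transcript abundance that is scaled for transcript length and library size, so that genes can be set beside each other.

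**Figure D1:**
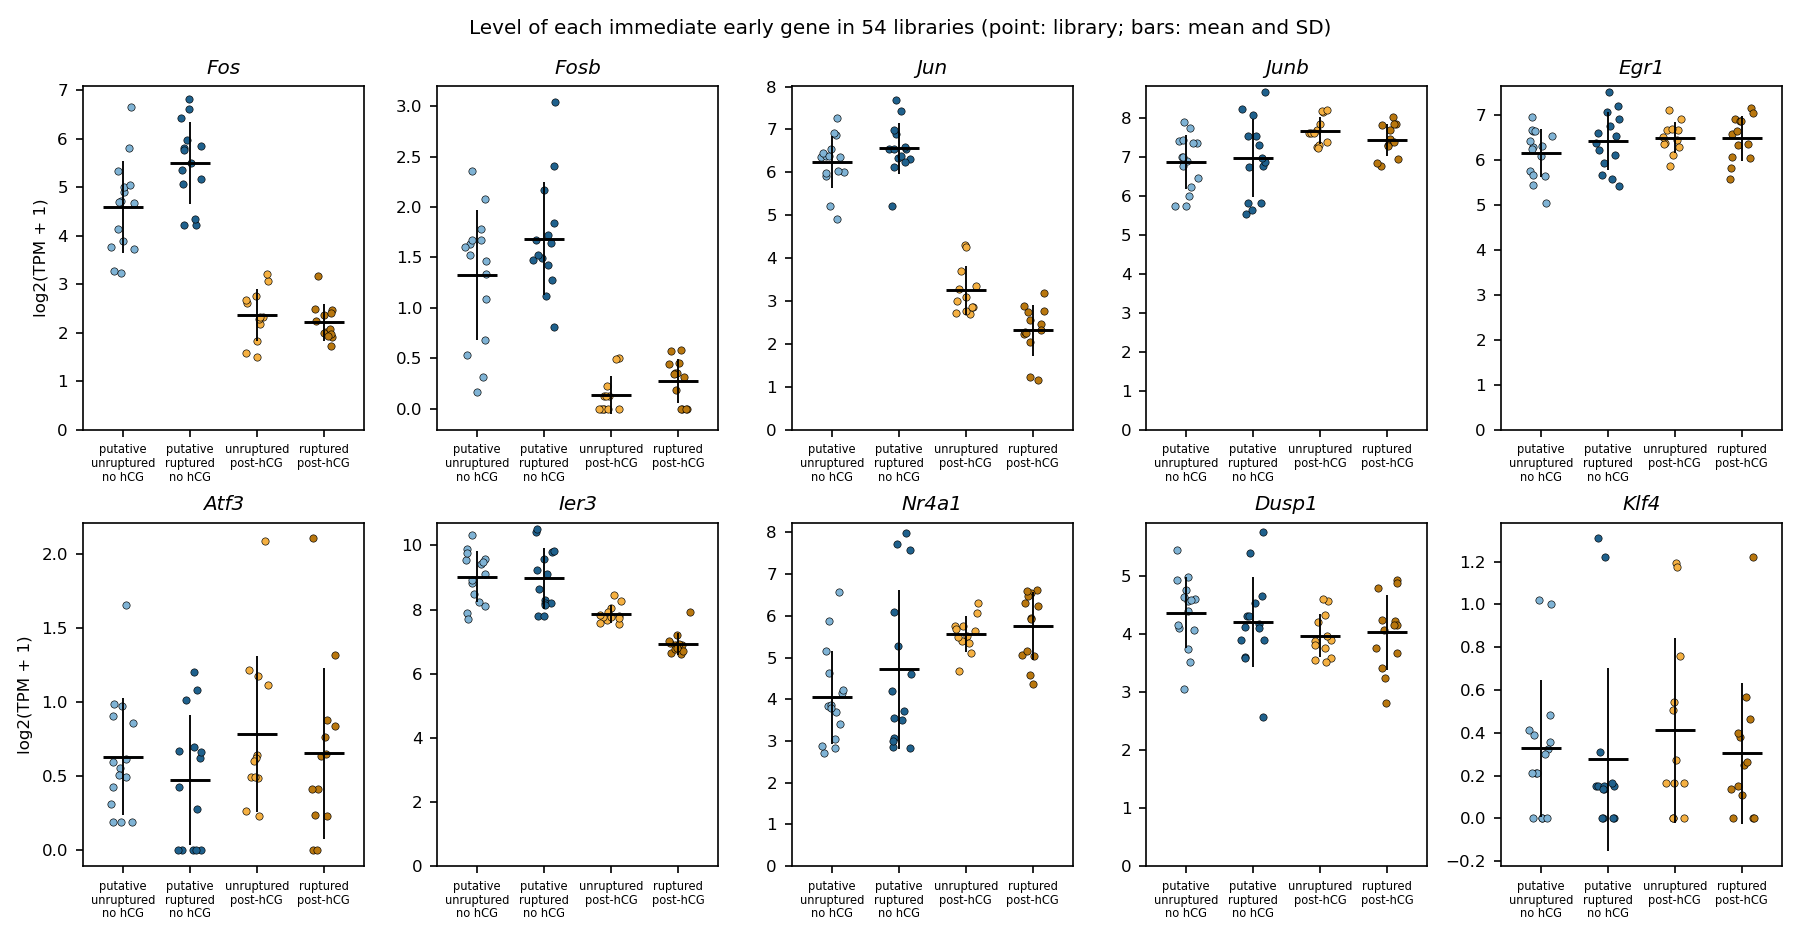
Level of each of the 10 genes in each of the 54 libraries, as log2(TPM + 1) on the vertical axis, by side and medium on the horizontal axis. Points are libraries and bars are the mean and SD of a group. On each side the Fos and Jun points post-hCG lie below every point without hCG, while the Egr1 points of the 4 groups share 1 range.

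The effect of hCG was compared within each side with edgeR (log2FC, hCG over no hCG). On the unruptured side, 6 of the 7 members that passed the filter on low counts changed at an FDR of 0.05, against 53.1% of all 9320 genes tested. Of these, 4 were lower (27.7% of all genes were) and 2 were higher (25.4% of all genes were). On the ruptured side, 4 of 8 changed, against 60.1% of all 8531 genes, and all 4 were lower, against 30.4% of all genes. Fosb was 1 of these 4 and passed the filter only through the group without hCG, so that it could be called in 1 direction only, and 3 of 7 members were called besides it. The members are therefore described gene by gene. With library totals in place of TMM scaling, 1455 genes rose and 3844 fell on the unruptured side (2365 and 2582 with TMM) and 1376 rose and 4242 fell on the ruptured side (2532 and 2597 with TMM), while 6 and 4 members were called as before.

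Jun, the AP-1 subunit that combines with Fos proteins, had the lowest log2FC with hCG among the members that passed the filter, on both sides. On the putative unruptured side Jun lay between 29.25 and 153.45 TPM (median 81.49), and post-hCG on the unruptured side between 5.52 and 18.78 TPM (median 7.29). On the putative ruptured side it lay between 35.9 and 205.08 TPM (median 92.2), and post-hCG on the ruptured side between 1.25 and 8.12 TPM (median 4.03). The ranges of the media did not overlap on either side: every post-hCG library was below every library without hCG. The log2FC was -3.22 ± 0.24 (SE, FDR = 4.18e-13) for unruptured and -4.39 ± 0.23 (SE, FDR = 2.21e-17) for ruptured sides. By its mean TPM, Jun went from rank 638 to rank 3654 among all genes on the unruptured side and from rank 516 to rank 5225 on the ruptured side.

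Fos, whose protein needs a Jun partner to bind DNA, fell likewise. It ran from 8.43 to 100.1 TPM (median 24.98) on the putative unruptured side, against 1.84 to 8.21 TPM (median 3.99) on the unruptured side post-hCG. On the putative ruptured side it ran from 17.6 to 112.41 TPM (median 49.19), and on the ruptured side post-hCG from 2.31 to 8.03 TPM (median 3.20). Again the media did not overlap on either side, although on the unruptured side the gap was narrow, from 8.21 to 8.43 TPM. The log2FC was -3.00 ± 0.34 (SE, FDR = 7.87e-09) and -3.84 ± 0.28 (SE, FDR = 1.27e-13). Ranges that do not overlap and lie lower post-hCG were found for 1.45% of all genes tested for the unruptured side and 4.34% for the ruptured side. Fos rested on 10 to 39 counts per library post-hCG, against 55 to 785 without hCG.

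Fosb, a second Fos family gene, was low even without hCG and close to absent post-hCG. It ran from 0.12 to 4.11 TPM (median 1.88) and from 0.75 to 7.26 TPM (median 1.995) on the 2 sides, putative unruptured and putative ruptured. Post-hCG it ran from 0 to 0.42 TPM on the unruptured side, where 6 of 12 libraries had no count, and from 0 to 0.5 TPM on the ruptured side, where 4 of 13 had none. The media overlapped on the unruptured side but not on the ruptured side. The ruptured side held 377 counts in all without hCG and 23 post-hCG, and since Fosb passed the filter there only through the group without hCG, its fitted log2FC of -3.87 ± 0.38 (SE) is given as a description. On the log2(TPM + 1) scale, which shrinks changes of low genes, limma gave -1.41. On the unruptured side the post-hCG libraries held 7 counts in all and Fosb did not pass the filter. Without a filter its fitted log2FC was -4.85, likewise a description.

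Ier3 was the most abundant member in every group without hCG. It ran from 209.54 to 1278.25 TPM (median 550.86) on the putative unruptured side, against 221.05 to 1464.79 TPM (median 473.6) on the putative ruptured side. With hCG it ran from 187.4 to 351.56 TPM (median 220.19) on the unruptured side, against 97.43 to 244.29 TPM (median 117.0) on the ruptured side. All 12 unruptured and all 13 ruptured libraries post-hCG lay below the median of their side without hCG, but the ranges overlapped on both sides. The log2FC was -1.35 ± 0.22 (SE, FDR = 6.05e-06) for unruptured and -2.09 ± 0.25 (SE, FDR = 1.21e-08) for ruptured sides.

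Junb, which can replace Jun in AP-1 but activates many Jun targets less well, did not follow Jun. It ran from 52.93 to 241.17 TPM (median 127.32) on the putative unruptured side, against 149.14 to 298.07 TPM (median 197.6) on the unruptured side post-hCG, where all 12 libraries lay above the former median. On the putative ruptured side it ran from 45.25 to 407.81 TPM (median 120.59), and on the ruptured side post-hCG from 108.86 to 259.23 TPM (median 171.75). The groups overlapped on both sides. Junb rose on the unruptured side, with a log2FC of 0.64 ± 0.20 (SE, FDR = 0.00716), and its log2FC of 0.37 ± 0.25 (SE, FDR = 0.204) on the ruptured side did not pass the test. The peroxidase gene Prdx2 overlaps Junb by 351 bases on the opposite strand, had a mean of 1089 TPM over all libraries, and rose post-hCG with a log2FC of 2.46 and 2.50 on the unruptured and ruptured sides (FDR = 1.01e-14 and 3.78e-16), so reads of the shared stretch cannot be told apart. Within groups the levels of Junb and Prdx2 had a Pearson r of 0.254 (n = 54, permutation p = 0.129) and a Spearman rho of 0.151 (permutation p = 0.319), and r was 0.234 without the 2 libraries farthest in Prdx2. That relation was computed after the values had been seen.

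Because Jun and Junb differed, the makeup of both AP-1 families was computed from TPM in each library, a measure added after the values had been seen. Jun was on average 39.1% ± 9.76 (SD, n = 15) of the summed Jun, Junb and Jund transcripts on the putative unruptured side and 43.3% ± 14.9 (SD, n = 14) on the putative ruptured side. Post-hCG it was 4.23% ± 2.15 (SD, n = 12) and 2.32% ± 0.837 (SD, n = 13). The highest share post-hCG was 10.5%, below the lowest share of 16.2% without hCG. The differences of -34.8 percentage points (unruptured) and -41.0 (ruptured) both had an adjusted p of 2e-05 (two-sided permutation test, 8 comparisons, the smallest value the resamples allowed for them), and the ruptured side was 1.92 points below the unruptured side post-hCG (adjusted p = 0.0004, permutation test). Summed over the family the medians stayed closer, at 209.7 and 245.8 TPM without hCG and 204.6 and 179.4 TPM post-hCG on the unruptured and ruptured sides. Jund averaged 0.688% and 0.872% of the family without hCG and 0.524% and 0.580% post-hCG in the same order. The shares therefore describe almost only Jun against Junb.

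In the Fos family, Fos made up 42.6% ± 16.3 (SD, n = 15) and 53.7% ± 11.5 (SD, n = 14) of the transcripts of Fos, Fosb, Fosl1 and Fosl2 on the putative unruptured and putative ruptured sides, and 12.3% ± 4.42 (SD, n = 12) and 16.1% ± 4.90 (SD, n = 13) post-hCG. The differences between media were -30.4 and -37.6 percentage points (adjusted p = 2e-05 for both, permutation test), and those between sides, 11.1 points without hCG and 3.78 points post-hCG, did not pass (adjusted p = 0.0608 and 0.0644, permutation test). Fosl1 took the opposite course, from 1.04% and 0.405% to 15.6% and 17.5% on average, while Fosl2 was the largest part post-hCG with 71.8% and 65.6%. As a share of counts in place of TPM, the same comparisons passed, but the shares themselves were others: Fos made up 24.0% and 31.5% of its family without hCG and 5.35% and 7.02% post-hCG, and Jun 54.7% and 58.1% of its own, then 7.74% and 4.37%.

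**Figure D2:**
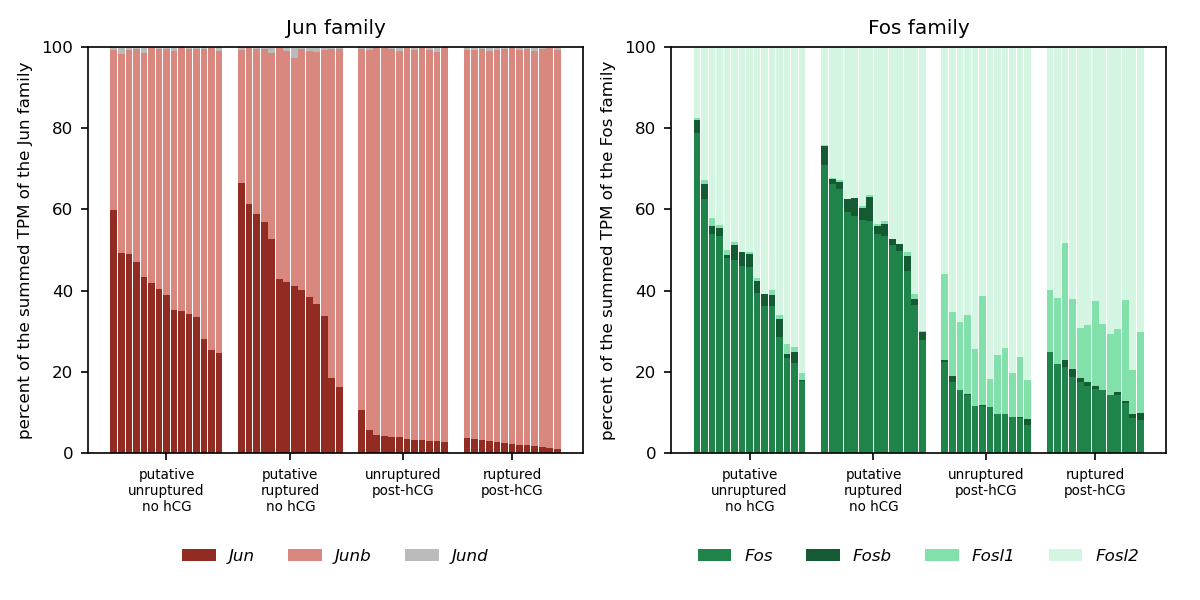
Percent of the summed TPM of the Jun family (left) and of the Fos family (right) given by each gene, with 1 bar for each library, grouped by side and medium and ordered in a group by the share of Jun or Fos. Jun took 16.2% to 66.4% of its family in the libraries without hCG and 1.06% to 10.5% post-hCG, where Junb filled nearly all of the rest.

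Nr4a1, which responds to luteinizing hormone and to cyclic AMP in many endocrine cells, had higher medians and a smaller spread post-hCG. On the putative unruptured side it ran from 5.53 to 94.29 TPM (median 13.43), and on the unruptured side post-hCG from 24.42 to 77.66 TPM (median 46.81). On the putative ruptured side it ran from 6.12 to 250.32 TPM (median 14.80), and on the ruptured side post-hCG from 19.53 to 97.79 TPM (median 60.70). All post-hCG libraries of both sides lay above the median of their side without hCG, but 3 putative ruptured libraries, replicates 4, 8 and 2, held 250.32, 191.11 and 210.92 TPM, above every post-hCG library. Nr4a1 rose on the unruptured side, with a log2FC of 1.18 ± 0.33 (SE, FDR = 0.00361). On the ruptured side the log2FC was 0.18 ± 0.51 (SE, FDR = 0.777), and with the replicate number as a block it was 1.24 (FDR = 0.0347).

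Egr1 did not change with hCG beyond the test's threshold on either side, and Dusp1 fell on the unruptured side. Egr1 had medians of 76.95, 87.2, 87.92 and 94.71 TPM on the putative unruptured, putative ruptured, unruptured and ruptured sides, within an overall range of 31.73 to 182.69 TPM. Its log2FC for hCG was 0.23 ± 0.15 (SE, FDR = 0.215) for the unruptured and 0.14 ± 0.19 (SE, FDR = 0.541) for the ruptured side, neither of which passed the test. Dusp1 had medians of 22.73, 16.6, 13.74 and 16.78 TPM in the same order, within 4.9 to 52.95 TPM. It fell on the unruptured side with a log2FC of -0.47 ± 0.19 (SE, FDR = 0.0354), which was no longer called without 8 of the 27 libraries left out in turn (FDR up to 0.0795, without putative unruptured replicate 7), with all groups in a common fit (FDR = 0.0634) or by limma (FDR = 0.1). On the ruptured side the log2FC of Dusp1 was 0.00 ± 0.22 (SE, FDR = 0.989). Ergic1, the gene that overlaps Dusp1 on the opposite strand, had a mean of 35.7 TPM and rose with hCG by a log2FC of 0.74 and 1.13 on the unruptured and ruptured sides (FDR = 9.92e-09 and 5.78e-15).

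Atf3 and Klf4 were near the floor of detection in all 4 groups and were not tested. Atf3 had medians of 0.44 to 0.55 TPM and never more than 3.32 TPM or 14 counts, and Klf4 had medians of 0.11 to 0.23 TPM and never more than 1.48 TPM or 9 counts. Fits without the filter gave log2FC values for hCG of -0.10 and 0.12 for Atf3 and 0.19 and 0.30 for Klf4 on the unruptured and ruptured sides. Differences in these genes were not detectable at this depth.

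The sides were then compared within each medium (log2FC, ruptured over unruptured side). Without hCG, none of the 8 members tested passed the FDR of 0.05 in edgeR, against 17.8% of all 9063 genes, although 2 of them, Fos and Nr4a1, had an unadjusted p under 0.05. Fos had a log2FC of 0.87 ± 0.33 (SE, p = 0.0131, FDR = 0.0654), with 11 of 14 putative ruptured libraries above the putative unruptured median, and Nr4a1 of 1.57 ± 0.57 (SE, p = 0.00961, FDR = 0.0528), with 7 of 14 above. Both were near the threshold: a common fit of all groups called both (FDR = 0.0105 and 0.00814), DESeq2 called Nr4a1 (FDR = 0.0367) and limma called Fos (FDR = 0.0471). The estimate for Nr4a1 fell to 0.67 by limma (FDR = 0.488) and to 0.80 with the replicate number as a block (FDR = 0.408). Leaving out putative unruptured replicate 7, the library with the most Fos counts of its group, gave Fos a log2FC of 1.19 (FDR = 0.00478), and leaving out putative unruptured replicate 5 gave Nr4a1 a log2FC of 1.94 (FDR = 0.0152). In all, Fos was called without any of 5 libraries and Nr4a1 without any of 10, of 29 left out in turn. The other 6 members had log2FC values from -0.07 (Dusp1) to 0.55 (Fosb).

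Post-hCG, 3 of 7 members tested differed between the sides, against 21.4% of all 8585 genes: 2 were lower on the ruptured side (11.3% of all genes were) and 1 was higher (10% of all genes were). Jun was lower on the ruptured side, with a log2FC of -0.82 ± 0.20 (SE, FDR = 0.0034), and 12 of 13 libraries were under the unruptured median, 9 of them below all unruptured libraries. Ier3 was lower as well, with a log2FC of -0.67 ± 0.13 (SE, FDR = 0.000227), and 12 of 13 ruptured libraries lay below every unruptured library, ruptured replicate 13 being the exception at 244.29 TPM. With all groups in a common fit, Ier3 just missed the threshold (FDR = 0.0555). Nr4a1 was higher, with a log2FC of 0.56 ± 0.19 (SE, FDR = 0.0318), but was not called by limma (log2FC 0.20, FDR = 0.567), with all groups in a common fit (FDR = 0.457), with library totals only (FDR = 0.122), with the replicate number as a block (FDR = 0.0854), or without any of 9 libraries of 25 left out in turn (FDR up to 0.0632, without ruptured replicate 12). Among the libraries of the code letter C alone, Nr4a1 had a log2FC of 0.73 and was not called either (FDR = 0.0928). Fos and Junb had log2FC values of 0.01 ± 0.16 and 0.02 ± 0.10 (SE, FDR = 0.968 and 0.93).

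Dusp1 and Egr1 lay near the threshold, with log2FC values of 0.40 ± 0.15 (SE, FDR = 0.0576) and 0.28 ± 0.12 (SE, FDR = 0.0911). Dusp1 was called without any of 6 libraries (lowest FDR = 0.0219, without ruptured replicate 7) and Egr1 without unruptured replicate 4 (FDR = 0.0458) or ruptured replicate 7 (FDR = 0.0496). With the replicate number as a block Egr1 was called (log2FC 0.29, FDR = 0.0492) and Nr4a1 was not. On the ruptured side post-hCG, medians under the letters C and D were 73.96 and 47.5 TPM for Nr4a1, 26.65 and 12.13 TPM for Dusp1, and 116.62 and 72.63 TPM for Egr1. On the unruptured side, medians under B and C were 47.47 and 41.245 TPM, 13.74 and 16.74 TPM, and 83.975 and 95.235 TPM in the same order. Differences between letters were not tested. The code letter C was carried by libraries of both sides post-hCG, 4 unruptured and 5 ruptured. Among these alone Jun ran from 6.26 to 18.26 TPM on the unruptured side, against 4.48 to 8.12 TPM on the ruptured side, with a log2FC of -0.75 (FDR = 0.0697), and Ier3 ran from 212.45 to 306.54 TPM and from 97.43 to 145.43 TPM, without overlap.

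**Figure D3:**
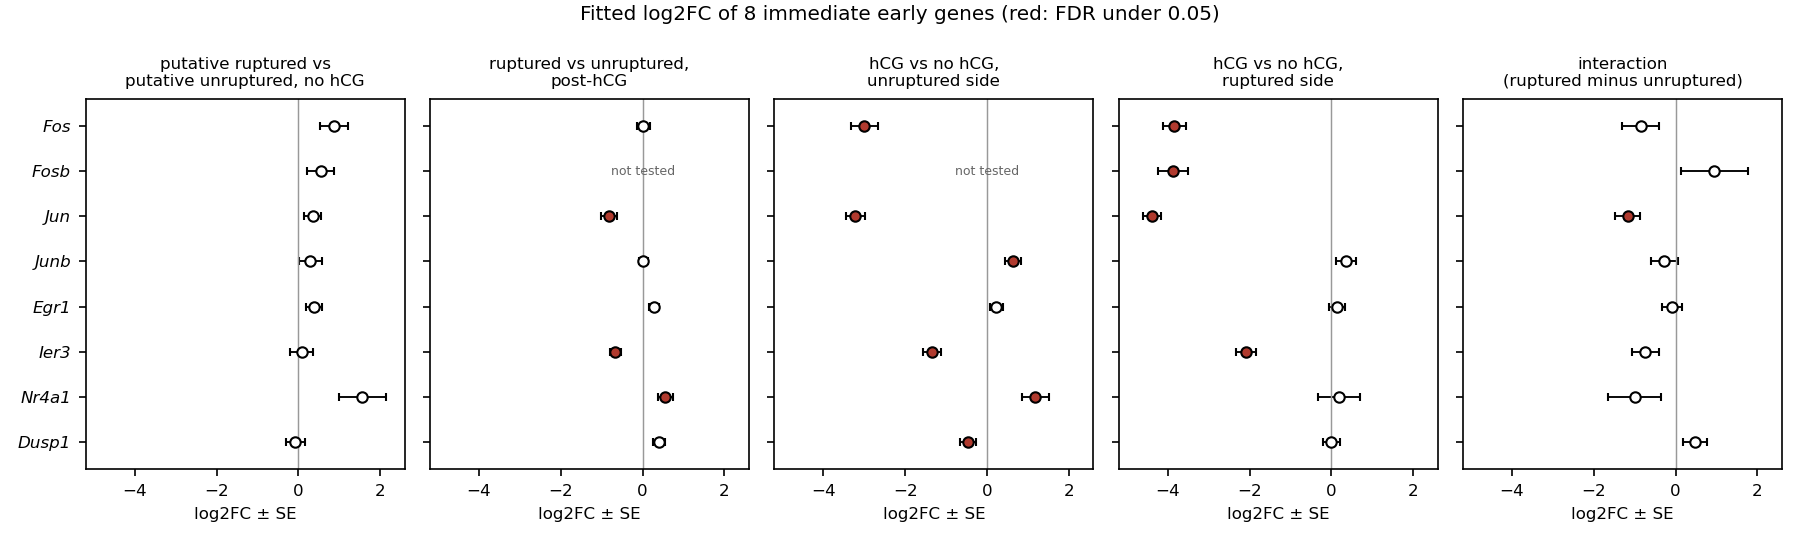
Fitted log2FC with its SE (horizontal axis) of the 8 genes tested, in the 4 comparisons and for their interaction. Red points passed an FDR of 0.05 and open points did not. The lowest estimates are those of Jun, Fosb and Fos on the ruptured side, at -4.39, -3.87 and -3.84.

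Markers of theca and stroma cells differed between the sides in the same direction as Jun and Ier3. Of the 12 markers 6 were tested post-hCG, and 5 were lower and none higher on the ruptured side, against 11.3% of all genes lower. Since the markers were low on the ruptured side, those that passed the filter through the unruptured side alone could be called in 1 direction only. The summed level of the 12 ran from 77.59 to 1338.1 TPM on the unruptured side, against 3.84 to 55.55 TPM on the ruptured side, without overlap, and 6 of the 12 had a median of 0 on the ruptured side. In the unruptured library with the lowest sum, 77.59 TPM, Jun was at 5.84 and Ier3 at 187.4 TPM. In the 2 ruptured libraries with the highest sums, 55.35 and 55.55 TPM, Jun was at 5.65 and 5.77 TPM and Ier3 at 112.66 and 244.29 TPM. Within groups the levels of Jun and of these markers had a Pearson r of 0.199 (n = 54, adjusted permutation p = 0.415) and a Spearman rho of 0.248 (adjusted permutation p = 0.228), and those of Ier3 an r of 0.0600 (adjusted permutation p = 0.898) and a rho of 0.0881 (adjusted permutation p = 0.794). Without the 2 libraries farthest in the marker sum, r was 0.150 and -0.107. In single groups the r of Jun was 0.175 and 0.0435 without hCG and 0.353 and 0.470 post-hCG (unruptured, then ruptured side). That of Ier3 was 0.457 and -0.288 without hCG and 0.418 and 0.571 post-hCG. The values of single groups were not tested. The part of these cells in the difference between sides was not tested further.

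**Figure D4:**
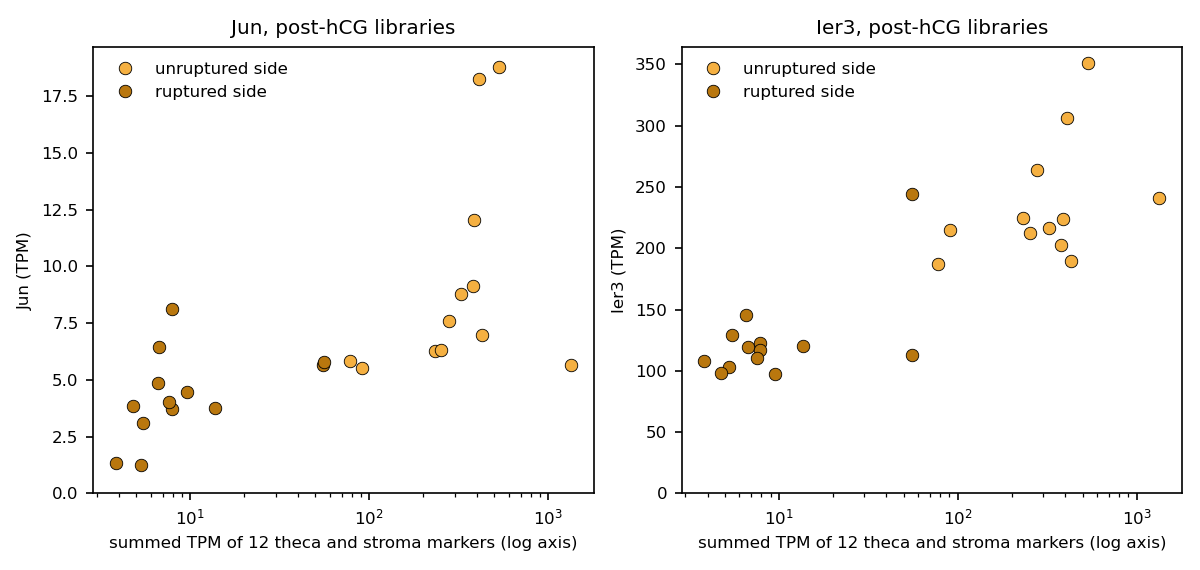
Jun (left) and Ier3 (right), in TPM, against the summed TPM of 12 theca and stroma markers on a log axis, with 1 point for each post-hCG library. Unruptured libraries lie at marker sums of 77.59 TPM and more and ruptured libraries at 55.55 TPM and less, and the highest Jun and Ier3 points are unruptured.

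Whether the hCG effect itself differed between sides was asked with the interaction of side and medium. Jun was the only member of 8 tested that passed, against 8.91% of all 10013 genes in either direction and 4.65% in the direction of Jun. Its fall was larger on the ruptured side by a log2FC of -1.17 ± 0.30 (SE, FDR = 0.00907), and the FDR lay between 0.00408 and 0.0294 over the 7 alternative fits. Ier3 had an interaction of -0.74 ± 0.34 (SE, FDR = 0.164) and Fos of -0.86 ± 0.45 (SE, FDR = 0.244), neither of which passed. Without putative unruptured replicate 7 the interaction of Fos was -1.17 (FDR = 0.0495). Nr4a1 had the largest estimate among the other members, -1.002 ± 0.65 (SE, FDR = 0.376).

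The order of the 4 group means of log2(TPM + 1) was then followed for each gene, with a two-sided permutation test between each pair of neighbours (30 pairs, adjusted together). Fos, Fosb and Jun followed the same course down to the second step: highest on the putative ruptured side, then the putative unruptured side, then, across a drop that passed the test (adjusted p = 0.00015 for each), the post-hCG groups. Fos and Fosb did not differ beyond their spread between the post-hCG sides (adjusted p = 0.755 and 0.339), whereas Jun did (adjusted p = 0.00078). Ier3 passed at the step from the putative ruptured to the unruptured side (adjusted p = 0.0024) and at the step from there to the ruptured side (adjusted p = 0.00015). No neighbouring groups differed beyond their spread for Junb, Egr1, Atf3, Nr4a1, Dusp1 or Klf4, and 6 of the 30 pairs passed in all.

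Members also varied together between libraries of the same group. After removing the group means, Fos was correlated over the 54 libraries with 5 of the other 9 members: Fosb (r = 0.659, rho = 0.543), Dusp1 (r = 0.620, rho = 0.591), Junb (r = 0.608, rho = 0.577), Egr1 (r = 0.603, rho = 0.587) and Jun (r = 0.489, rho = 0.501). The adjusted permutation p was at most 0.000558 for r and 0.00036 for rho. With Ier3 (r = 0.300, adjusted p = 0.103, permutation), Nr4a1 (r = 0.267, adjusted p = 0.125, permutation), Atf3 (r = 0.121, adjusted p = 0.394, permutation) and Klf4 (r = -0.0644, adjusted p = 0.653, permutation) the relation did not pass. Leaving out the 2 libraries farthest from the median of Fos, putative unruptured replicates 7 and 6, gave r of 0.570 for Fosb, 0.596 for Dusp1, 0.679 for Junb, 0.636 for Egr1 and 0.444 for Jun.

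Within single groups these relations varied. The r of Fos and Fosb was 0.830 and 0.639 without hCG (putative unruptured, then putative ruptured), and -0.0943 and 0.317 post-hCG, where Fosb held 0 to 4 counts per library. The r of Fos and Junb was 0.404 and 0.878 without hCG and 0.632 and 0.221 post-hCG, and that of Fos and Jun was 0.726 and 0.558, then 0.242 and 0.0957. Differences between these values were not tested.

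**Figure D5:**
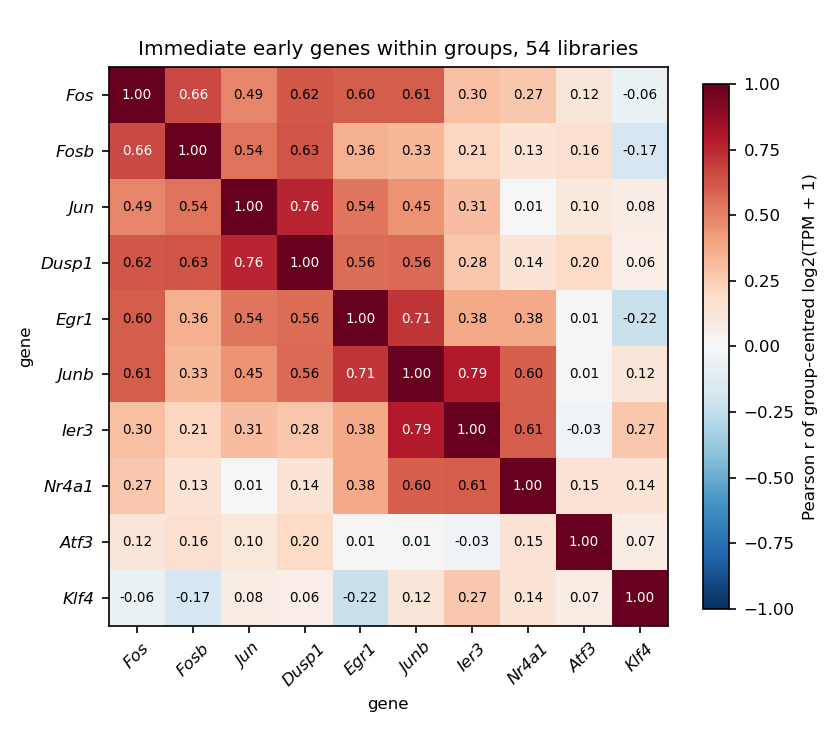
Pearson r of the group-centred log2(TPM + 1) of each pair of the 10 genes over 54 libraries, with genes on both axes and colour from -1 (blue) to 1 (red). The highest value is 0.792, between Junb and Ier3, and the lowest is -0.222, between Egr1 and Klf4.

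Among the 9888 genes that averaged 1 TPM or more, the 5 whose within-group pattern was most like that of Fos were Ier2 (r = 0.682), itself an immediate early gene, and then Fosb, Dusp1, Junb and Egr1. The median r of all these genes with Fos was 0.0514 and the 95th percentile 0.253. The closest pairs among the 10 genes were Junb with Ier3 (r = 0.792) and Jun with Dusp1 (r = 0.764). Nr4a1 had an r of 0.606 to Ier3 and of 0.00657 to Jun. The genes most like Nr4a1, looked up after its values had been seen, were Sik1, a kinase gene induced by cyclic AMP (r = 0.867), and Rgs2, a regulator of G protein signaling (r = 0.785), and for Junb and Ier3 alike the gene with the highest r was Bhlhe40 (r = 0.827 and 0.825). These values describe the libraries and carry no test.

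Depth and the mitochondrial share were set against the 8 tested members within groups, with theca and granulosa marker sums, in 32 relations chosen after the data had been seen. Nr4a1 was lower where the mitochondrial share was higher (r = -0.457, adjusted permutation p = 0.00352, rho = -0.525, adjusted permutation p = 0.00256), and r was -0.538 without the 2 farthest libraries. No other relation passed for r. By rho, Junb passed with total counts (rho = 0.433, adjusted permutation p = 0.0163) and the mitochondrial share (rho = -0.458, adjusted permutation p = 0.0122), and Ier3 with the mitochondrial share (rho = -0.383, adjusted permutation p = 0.0428). For Fos the r with total counts was 0.155 (adjusted permutation p = 0.625) and with the mitochondrial share -0.150 (adjusted permutation p = 0.625).

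The spread between follicle sides was smaller post-hCG. The SD of log2(TPM + 1) was lower post-hCG for 8 of the 10 genes on the unruptured side and for 9 of 10 on the ruptured side, whereas among the same 9888 genes it was lower for 58.5% and 54.8%. Atf3 and Klf4 averaged under 1 TPM and were not among those 9888 genes. The SD of Fosb post-hCG rested on 0 to 2 counts per library on the unruptured side and 0 to 4 on the ruptured side. Ier3 had an SD of 0.790 and 0.945 without hCG and of 0.271 and 0.340 post-hCG on the unruptured and ruptured sides. Among all genes that was percentile 93.8 and 96.6 of the SDs without hCG, and percentile 18.5 and 31.3 post-hCG. Nr4a1 had an SD of 1.12 and 1.90 without hCG, at percentile 98.2 and 99.7, and of 0.423 and 0.810 post-hCG. These SDs are a description with no test.

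A list of 50 other immediate early genes, which holds early response genes outside the 10, was examined in the same fits. On the unruptured side 10 of 35 tested rose with hCG and 18 fell (53.1% of all genes were called), with a median log2FC of -0.42 beside -0.03 over all genes. On the ruptured side 11 of 34 rose and 15 fell (60.1% of all genes were called), with a median of -0.26 beside -0.00. The glucocorticoid-regulated kinase gene Sgk1 rose by a log2FC of 4.39 and 3.22 (FDR = 6.5e-18 and 1.31e-12) and the HLH inhibitor gene Id2 by 3.005 and 3.496 (FDR = 5.59e-12 and 4.06e-12). The AP-1 gene Fosl1, counted among those that rose, had fitted log2FC values of 3.21 and 3.76. Its medians were 0.57 and 0.31 TPM without hCG and 5.435 and 3.92 TPM post-hCG. It could pass the filter only through the post-hCG groups and be called in 1 direction only, so its values are a description. Id3, a paralog of Id2, fell by 2.34 and 3.38 on the log2 scale (FDR = 2.17e-11 and 6.58e-17). Sgk1 had a median of 16.68 and 39.13 TPM without hCG and of 418.73 and 523.8 TPM post-hCG.

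Between the sides the same list moved in both directions. Of all genes, 17.8% were called between the sides without hCG, 21.4% post-hCG and 8.91% in the interaction. Without hCG 4 of 32 were higher and 4 lower on the putative ruptured side, led by Sgk1 (log2FC 1.72, FDR = 2.33e-05), Cebpd (-1.14, FDR = 0.0233) and Ppp1r15a (0.67, FDR = 0.00032). Post-hCG 4 of 31 were higher and 4 lower, led by the ERK phosphatase gene Dusp4 (-1.17, FDR = 1.34e-05), the cytokine signaling inhibitor gene Socs3 (-0.965, FDR = 8.65e-07) and the kinase gene Plk3 (0.78, FDR = 0.00647). For the interaction 2 of 36 were higher and 4 lower, led by Plk3 (1.42, FDR = 0.00444), Sgk1 (-1.17, FDR = 0.0121) and Id3 (-1.05, FDR = 0.00636).

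Genes that act upstream of the immediate early response, 38 receptors, ligands, kinases and transcription factors of the cyclic AMP, EGF and ERK pathways, were examined in the same fits. With hCG 11 of 36 rose and 9 fell on the unruptured side (53.1% of all genes were called there), and 12 of 33 rose and 8 fell on the ruptured side (60.1% of all genes). The EGF-like ligand gene Ereg rose by a log2FC of 3.996 and 3.002 (FDR = 1.59e-10 and 1.69e-07) and the luteinizing hormone receptor gene Lhcgr by 3.90 and 4.20 (FDR = 2.34e-07 and 2.65e-09), while Areg, a second EGF-like ligand gene, rose by 3.07 on the unruptured side (FDR = 4.48e-07). Prkar2b, a regulatory subunit of protein kinase A, fell by 1.97 on the log2 scale on the ruptured side (FDR = 1.84e-09). Lhcgr had medians of 3.81 and 10.72 TPM without hCG and of 146.87 and 294.79 TPM post-hCG, the highest mean level of the list, followed by Prkar1a and Gnas.

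Without hCG 4 of 32 upstream genes were higher and 6 lower on the putative ruptured side, led by Fshr (2.12, FDR = 8.06e-05), Prkar2b (1.24, FDR = 0.00162) and Btc (1.23, FDR = 0.00261). Post-hCG 6 of 34 were higher and 3 lower, led by Lhcgr (1.28, FDR = 0.00041), Ereg (-1.22, FDR = 0.00362) and Prkar2b (0.97, FDR = 0.000636). In the interaction 5 of 36 were higher and 3 lower, led by Areg (-2.26, FDR = 0.0238), Fshr (-1.49, FDR = 0.0258) and Gnas (0.92, FDR = 0.00753). Over all genes, 17.8% were called between the sides without hCG, 21.4% post-hCG and 8.91% in the interaction.

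Heat shock and stress genes were included because tissue handling can induce them together with Fos and Jun. Of 12 tested, 4 rose and 2 fell with hCG on the unruptured side (53.1% of all genes were called), and 5 rose and 3 fell on the ruptured side (60.1% of all genes). Among them were Hspd1 (0.76 and 1.497) and Hsph1 (0.78 and 1.07), higher on both sides (FDR = 1.15e-07 and 7.35e-15 for Hspd1, 8.65e-07 and 1.27e-10 for Hsph1). Dnajb4 was lower on the unruptured side (-1.13, FDR = 1.11e-06) and Hspb1 higher on the ruptured side (1.37, FDR = 9.71e-08). Between sides, none were higher and 3 lower on the putative ruptured side without hCG, led by Hspb1 (-1.33, FDR = 3.2e-05), and 1 was higher and 2 lower post-hCG, led by Hmox1 (-1.35, FDR = 1.58e-06). In the interaction 2 were higher and 1 lower. Over all genes, 17.8% were called between the sides without hCG, 21.4% post-hCG and 8.91% in the interaction. The summed level of the 14 genes, of which Hsp90ab1, Hspa8 and Hsp90aa1 had the highest mean level, ran from 3766 to 9295.8 TPM without hCG and from 4075.7 to 7142 TPM post-hCG, and their part in the levels of the 10 genes was not tested.

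Markers of the cell types that a follicle side can hold were examined in the same fits. Over all genes, 17.8% were called between the sides without hCG, 21.4% post-hCG and 8.91% in the interaction. With hCG, 53.1% were called on the unruptured and 60.1% on the ruptured side. Fshr stood in both the upstream and the granulosa list. Granulosa markers had medians of their summed level of 4143.1 and 14441 TPM on the putative unruptured and putative ruptured sides and of 1589.5 and 1374.1 TPM post-hCG, and 8 of 10 tested fell with hCG on either side while 2 and 1 rose. Between sides 8 of 10 were higher on the putative ruptured side and none lower, and post-hCG 3 of 7 were higher and 1 lower. Theca and stroma markers had medians of 540.6 and 43.7 TPM without hCG and of 350.9 and 7.57 TPM post-hCG, with 7 of 9 lower on the putative ruptured side, 6 of 9 lower with hCG on the unruptured side and 3 of 4 on the ruptured side, and none higher. A marker that passed the filter only through the group where it was high could be called in 1 direction only. Oocyte markers were at a median of 0 for at least 10 of the 12 genes in every group and none was tested, while 1 putative unruptured library reached a sum of 159.49 TPM. Cumulus markers had medians of 8.68 to 27.5 TPM over the groups, with 3 of 3 tested higher on the putative ruptured side, 1 of 2 higher on the ruptured side post-hCG and 2 of 2 higher with hCG on the unruptured side. Smooth muscle, endothelial, immune and surface epithelium markers had medians of at most 35.2 TPM, and 1 was called higher and 6 lower in all over the 5 comparisons.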

How the data were processed

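Follicle sides were profiled by Smart-seq2, with reads placed on GRCm38 by the authors through HISAT2. The deposited tables give an estimated count per coding gene and library, which was rounded to whole numbers, and the authors deposited TPM for the same genes. It is not clear from the sources whether the batch correction the study names was applied to these tables. The members and gene lists were chosen with earlier results of these data known. All 10 members are named, and from each other list at most the 3 called genes with the largest log2FC per comparison and the highest 3 by mean TPM. Genes were tested with edgeR 4.0.16 in R 4.3.3 (TMM, quasi-likelihood, filterByExpr with a minimum count of 10 and total of 15, Benjamini-Hochberg FDR of 0.05), each comparison on its own libraries and the interaction on all 54. Alternatives were DESeq2 1.42.0, limma 3.58.1 on log2(TPM + 1), other size factors, other filters, a common fit, the replicate number as a block, a shared code letter of the labels and single libraries left out. Permutation tests were two-sided with 100000 resamples. In simulated counts, edgeR found 88%, 91%, 92%, 93% and 62% of genes changed 2-fold and 93%, 92%, 93%, 91% and 96% of those changed 4-fold in the comparisons of sides without and with hCG, of hCG on the unruptured and ruptured sides, and in the interaction.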

Additional observations from a re-analysis of the deposited data

Results flagged for a closer look

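The difference in the hCG effect between the sides passed its test for Jun, with an interaction of -1.17 ± 0.30 (SE, log2FC, edgeR FDR = 0.00907). Jun fell by 3.22 on the log2 scale on the unruptured side and by 4.39 on the ruptured side, and all 25 post-hCG libraries lay below all 29 libraries without hCG. The FDR lay between 0.00305 and 0.0221 without any of 8 libraries left out in turn. These were the libraries with the highest and the lowest Jun TPM of each group, chosen after the data had been seen. Theca and stroma markers, which were lower on the ruptured side in both media, had 2 of 9 tested genes lower and none higher in the same interaction, against 4.65% of all genes lower. The part of these markers in the difference was not tested.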

How the results depend on the processing

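Of 308 values of single members under alternatives, 278 kept their direction and their side of the threshold, 9 lost and 6 gained a call and 15 changed sign. The calls for Fos, Jun and Ier3 with hCG on both sides, for Junb and Nr4a1 on the unruptured side and for the interaction of Jun held in every alternative. Without hCG, DESeq2 called 1 member between the sides, the common fit 2 and limma 1, and limma called 999 genes and the libraries of a shared code letter 3. Post-hCG, the common fit called 1 member and the shared letter 1, with 748 genes. The following changed sign. Ier3 without hCG was -0.05283 by limma and -0.05431 with the block. Post-hCG, library totals gave Fos -0.1426 and Junb -0.1256, limma gave Fos -0.1477, Junb -0.2438 and Egr1 -0.01783, and the shared letter gave Junb -0.06195. With hCG on the ruptured side, library totals gave Egr1 -0.1574, Nr4a1 -0.1299 and Dusp1 -0.3024, and Dusp1 was -0.005508 by DESeq2, -0.004964 with a mean of 20 counts and -0.1809 by limma. The interaction of Fosb was -0.2164 by limma and 0.94 by edgeR, and the r of Fos and Klf4 was 0.1041 on log2 CPM. Within the ruptured side post-hCG, the r of Fos was -0.414 with Junb and -0.245 with Jun on log2 CPM. Library totals moved the median log2FC of all genes to -0.06, -0.14, -0.25, -0.33 and -0.11 in the 5 comparisons, and calls between sides to 585 higher and 905 lower without hCG (801 and 812 with TMM), 397 and 1830 post-hCG (862 and 971) and 230 and 660 in the interaction (426 and 466). The causes were not tested. With 1 library left out, 0 to 2 members were called between sides without hCG, 2 to 5 post-hCG (5 without ruptured replicate 7), 5 to 7 with hCG on the unruptured side, 3 to 4 on the ruptured side and 1 to 2 in the interaction, the last 2 in 6 and 8 fits only. The libraries of those 6 and 8 fits were extremes of Jun or Nr4a1 TPM, chosen after the data had been seen. Signs changed for Ier3 (-0.04884 to 0.198) and Dusp1 (-0.2046 to 0.04997) without hCG, Fos (-0.03156 to 0.08224) and Junb (-0.01888 to 0.06256) post-hCG and Dusp1 (-0.07538 to 0.1369) with hCG on the ruptured side. Same-numbered libraries did not deviate together (r over 0.1 in 1 of 14, 2 of 12, 1 of 12 and 1 of 13 pairs, best match with their own number in 1, 1, 2 and 2). The numbers were thus not seen to pair libraries, but this cannot show which sides came from the same follicle. Libraries with and without hCG came from different follicles. With the replicate block 0, 3, 6, 4 and 1 members and 1405, 1733, 4378, 4934 and 712 genes were called, with Egr1 called and Nr4a1 not between sides post-hCG. Leaving out a library with over 40% of the counts of a member concerned only Klf4, which stayed under the filter. Atf3, Klf4 and post-hCG Fosb, with at most 14, 9 and 4 counts per library, are limited by depth.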
